A study of Mus musculus with 10 samples.

Results

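The genes described here are 9 protein-coding genes of the p53 pathway and of cell cycle arrest in lung group 2 innate lymphoid cells (ILC2), chosen by name: Trp53, its regulators Mdm2, Mdm4 and Atm, the CDK inhibitors Cdkn1a and Cdkn1b, and the stress-response genes Ccng1, Sesn1 and Sesn3. All 9 were found among the 54838 gene identifiers of the count table, and all 9 were among the 7490 genes with enough counts to be tested. ILC2 are tissue lymphocytes without antigen receptors that release type 2 cytokines. The study sequenced total RNA of ILC2 sorted from lungs of C57BL/6 mice in which papain, a plant protease, had raised inflammation. The cells were negative for lineage markers and positive for CD90.2, with or without ST2 and KLRG1. There were 5 libraries of WT mice and 5 labelled c-Maf KO, for the loss of the transcription factor encoded by Maf; the mice were littermates kept together, and the labels give no age, no papain dose or time, and no promoter or Cre line for the deletion. Libraries are numbered within each group in the order of deposit, so a number pairs nothing; in the labels the KO samples all carry higher numbers than the WT samples. The labels do not state that each library came from its own mouse, and p-values therefore measure the spread between these libraries.

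p53, the product of Trp53, is a transcription factor that is kept scarce in unstressed cells because MDM2 tags it for destruction, while the related MDM4 binds it and blocks its activity. After DNA breaks the kinase ATM phosphorylates p53 and MDM2 and frees p53 to switch on target genes, among them Cdkn1a, Mdm2 itself, Ccng1 and Sesn1. Cdkn1a and Cdkn1b encode p21 and p27, inhibitors of cyclin-dependent kinases that halt the cell cycle; p27 keeps resting lymphocytes out of division. Sestrins restrain the growth kinase mTORC1 and oxidative stress, and Sesn3 and Cdkn1b are known as targets of FOXO factors.

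The promoter windows of these genes are shown because p53 acts by binding its target genes directly. RefSeq windows on GRCm38.p6, from 250 bases before to 50 bases after an annotated start, matched all 9 genes by symbol, in 12 windows. The p53 consensus element, a pair of decamers without a spacer that is 20 letters long, was searched with at most 1 differing letter. It was found in 29 of 32851 windows of all genes (0.0883%), and 2 of those belonged to the 9 genes. The capitals below mark that element, in the windows of Cdkn1a (chr17:29090729-29091028, plus strand) and Ccng1 (chr11:40755237-40755536, minus strand), each written 5′ to 3′ on the strand of its gene.
Cdkn1a: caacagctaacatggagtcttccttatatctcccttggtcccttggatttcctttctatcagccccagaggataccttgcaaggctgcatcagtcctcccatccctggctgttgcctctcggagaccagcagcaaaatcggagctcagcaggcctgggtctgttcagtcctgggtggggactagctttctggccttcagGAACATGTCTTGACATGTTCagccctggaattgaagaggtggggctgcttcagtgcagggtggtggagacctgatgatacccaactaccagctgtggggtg
Ccng1: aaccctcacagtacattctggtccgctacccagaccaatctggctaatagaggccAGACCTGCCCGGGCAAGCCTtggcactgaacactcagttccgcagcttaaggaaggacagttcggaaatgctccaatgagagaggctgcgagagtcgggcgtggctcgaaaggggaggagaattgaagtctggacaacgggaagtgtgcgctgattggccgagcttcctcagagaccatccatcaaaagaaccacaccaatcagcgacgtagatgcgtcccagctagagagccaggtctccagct
In both windows 1 letter of the 20 differed from the consensus. The second annotated start of Cdkn1a (chr17:29093519-29093818) had no such element, with at least 5 differing letters. The windows of Trp53 and Cdkn1b came no closer than 3 differing letters, and those of Atm no closer than 6.

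The Maf half-site TGCTGAC, searched on both strands without a differing letter and apart from the p53 element, was present in 4.67% of all windows and in 1 of the 12, at the downstream start of Sesn1 (chr10:41887189-41887488, plus strand). The FOXO letters GTAAACA, searched in the same way, were present in 3.65% of all windows and in 2 of the 12, those of Mdm2 (chr10:117710709-117711008, minus strand) and of the upstream start of Sesn1 (chr10:41810324-41810623, plus strand). Capitals mark the Maf half-site in Sesn1 and the FOXO letters in Mdm2.
Sesn1: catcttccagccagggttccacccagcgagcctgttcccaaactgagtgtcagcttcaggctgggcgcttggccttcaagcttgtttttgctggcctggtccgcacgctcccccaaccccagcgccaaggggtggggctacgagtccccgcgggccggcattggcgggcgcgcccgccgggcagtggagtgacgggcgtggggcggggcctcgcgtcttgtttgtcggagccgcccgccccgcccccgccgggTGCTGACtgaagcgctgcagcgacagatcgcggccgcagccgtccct
Mdm2: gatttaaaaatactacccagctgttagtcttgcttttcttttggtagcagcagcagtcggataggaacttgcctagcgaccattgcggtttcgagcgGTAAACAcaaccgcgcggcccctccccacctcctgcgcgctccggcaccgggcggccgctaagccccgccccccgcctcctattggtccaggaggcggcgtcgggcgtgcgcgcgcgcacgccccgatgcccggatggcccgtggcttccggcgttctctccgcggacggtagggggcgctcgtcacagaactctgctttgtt
A match of letters is not a measured binding site, and a window without a match says only that these letters are not in it.

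The WT libraries held 21400938 to 24489987 counts and the KO libraries 3620002 to 9867580. Maf itself had 3252, 3832, 1412, 1696 and 2727 counts in the WT libraries, and KO libraries 1 to 5 had 0, 0, 0, 108 and 0. KO library 4 thus held Maf at 15.4 CPM, below the lowest WT library at 37.52 CPM, and a 0 in the other KO libraries is a limited check of the label, since many genes were missing from them. Of 12 fixed ILC2 markers, 12 had over 3 counts in every WT library, and 9, 11, 10, 12 and 12 had in KO libraries 1 to 5. The KO libraries lacked many genes. Of the 7490 tested genes, 18 to 45.4% had over 3 counts in a KO library and 96.5 to 99.3% in a WT library. Genes were tested if they had enough counts in as many libraries as 1 group holds. The deeper WT libraries could supply these, so the WT share is high by selection. Of all identifiers in the count table, 10577 to 12744 had a count in a WT library and 4052 to 7660 in a KO library. KO library 1 stood apart, with 18.96% of its counts in 4 globin genes, against at most 0.07484% in any other library. Of 8 erythroid markers 5 were tested and all 5 were higher in KO, with a summed level of 6.274 to 13.29 CPM in WT and at least 190.6 CPM in each KO library; Alas2 was listed at 0. T cell markers summed to 109.8 to 284.1 CPM in WT and 44.71 to 169.4 CPM in KO (0 of 4 tested passed, Cd8a at 0), and B cell markers to 16.04 to 91.42 and 0 to 282.2 CPM (0 of 1 passed, Ms4a1 and Igkc listed at 0). Myeloid markers summed to 2.366 to 278.8 and 0 to 35.29 CPM, with Lyz2, the 1 tested, lower and Itgam listed at 0. At least 50% of the span of Alas2, Ms4a1, Igkc and Itgam is covered by other genes, so their 0 cannot be read as absence of the transcript. Epithelial and endothelial markers summed to 30.55 to 94.48 and 0.998 to 80 CPM (0 of 1 passed; Sftpc, Cdh5 and Cldn5 at 0). In bulk RNA of sorted cells, fewer cells of a type and less RNA per cell cannot be told apart. Levels below are TMM-scaled CPM, counts per 1000000 counts after scaling to the bulk of the genes; WT factors ran from 1.462 to 1.908 and KO factors from 0.1803 to 0.9276. They are printed as mean ± SD of the 5 libraries of a group. Calls rest on edgeR's quasi-likelihood test with Benjamini-Hochberg adjustment over all tested genes, at an adjusted p of 0.05.

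Of the 9 genes, 3 were lower in KO (Trp53, Cdkn1b and Atm), 0 were higher and 6 did not pass. Over all tested genes, 27.1% were called lower and 1.5% higher, so 3 of 9 lies near that background. With no filter on low counts these shares were 15.9 and 12.3% of 19014 genes. Mdm2 also stood below every WT library in all 5 KO libraries, as did Trp53, Cdkn1b and Atm; this held for 4 of the 9 genes and for 28.9% of all tested genes. No more than 3 counts in any KO library were found for 3 of the 9, those that were called lower, and for 22.3% of all tested genes. Mdm2 and Ccng1 had that in 4 of the 5 KO libraries, which makes 5 of 9, against 51.2% of all tested genes.

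The calls were repeated under 18 alternatives: other scalings, tools and filters, a permutation test and left-out libraries. A two-sided exact permutation test on log2(CPM + 1), adjusted over the same genes, called 4 of the 9 lower, Mdm2 in addition, beside 32.2% of all genes (0.975% were higher). The count was 4 of 9 also with DESeq2 (23.3% of its genes lower, 13.5% higher), with library size alone (31.1 and 0.654%), without KO library 3 (37.9 and 3.09%) and without KO library 4 (37.8 and 3.41%). It was 6 of 9 with limma voom (33.2 and 0.948%). It was 3 of 9 with RLE size factors (24.2 and 2.58%), no filter on low counts (15.9 and 12.3%), a minimum of 50 counts (19.9 and 0.848%), and without KO libraries 1 and 5 (33.4 and 3.53%). None of these called any of the 9 higher.

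**Figure D1:**
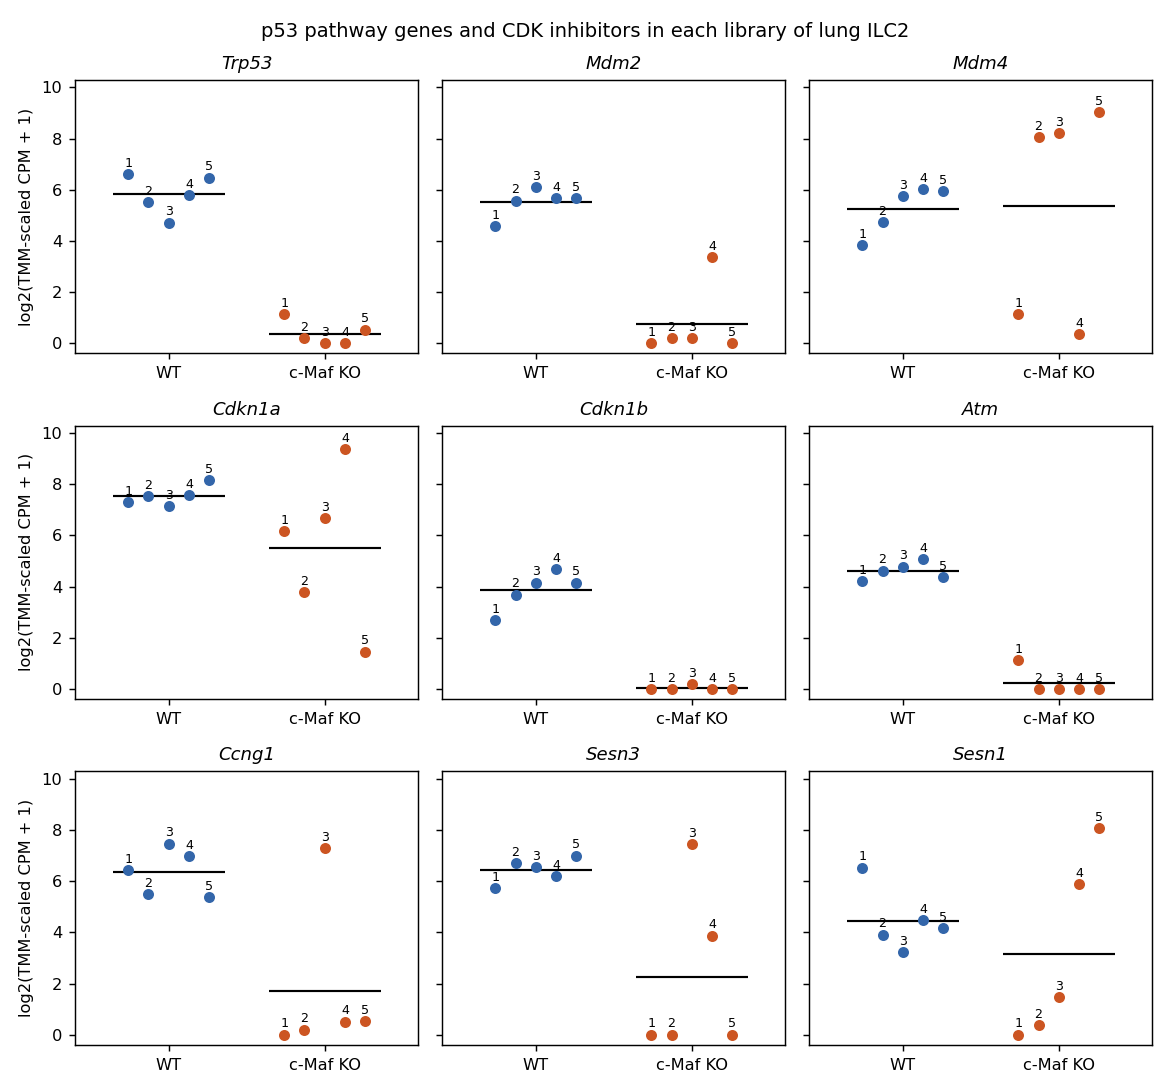
Level of each of the 9 genes in every library, as log2(TMM-scaled CPM + 1), with WT in blue and c-Maf KO in orange; the digit beside a point is the number of the library and the line is the mean of 5 libraries on this scale. Trp53, Mdm2, Cdkn1b and Atm have no KO library within the WT range, while Mdm4 has 3 KO libraries above all WT libraries and 2 below them.

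Trp53 (ENSMUSG00000059552, GRCm38 chromosome 11, 69580359 to 69591873, plus strand), the gene of p53 itself, had 3372, 2020, 840, 2449 and 3854 counts in WT libraries 1 to 5. The KO libraries held 1, 1, 0, 0 and 1. Every WT library thus held at least 840 counts and no KO library more than a single one. Its mean level was 61.77 ± 29.81 CPM (SD, n = 5) in WT against 0.3529 ± 0.4939 CPM (SD, n = 5) in KO. The WT to KO ratio of counts per scaled library size was 499, with an exact 95% counting interval of 171 to 2420 from the 3 KO counts; such intervals cover counting error only. The edgeR log2 fold change was −7.93 (SE 2.07, adjusted p = 0.006223). By total counts alone, the lowest WT share of Trp53 would give 142.1 counts at the smallest KO total, 3620002. By TMM-scaled size KO library 1 was smaller, at 850001, and there the lowest WT level would give fewer counts. Trp53 was called lower under all 18 alternatives, with an adjusted p of at most 0.02822.

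Atm (ENSMUSG00000034218, GRCm38 chromosome 9, 53439149 to 53536740, minus strand), the kinase that signals DNA breaks to p53, had 618, 1062, 885, 1464 and 865 counts in the WT libraries. In KO it had 1 count in library 1 and 0 in the other 4. Among the 9 genes Atm varied least between WT libraries, at 24.02 ± 5.818 CPM; only 8.64% of all tested genes had a smaller relative spread in WT. The KO level was 0.2353 ± 0.5261 CPM, and the WT to KO ratio was 584 (exact 95% counting interval 105 to 23100). edgeR gave a log2 fold change of −8.09 (SE 2.00) with an adjusted p of 0.004385, and Atm remained lower under all 18 alternatives (adjusted p up to 0.02675). By total counts alone, the lowest WT share would give 92.95 counts at the smallest KO total, and fewer at the scaled size of KO library 1. Npat, an activator of histone genes that lies head to head with Atm on the other strand, was singled out after its values were seen; it had 5818 counts in WT and 3 in KO (edgeR adjusted p = 0.002701).

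Mdm2 (ENSMUSG00000020184, GRCm38 chromosome 10, 117688875 to 117710758, minus strand), the ubiquitin ligase of p53, had 799, 2090, 2261, 2255 and 2197 counts in WT and 0, 1, 1, 65 and 0 in KO. KO library 4, the one with Maf counts, gave 97.01% of the KO counts. Mean levels were 47.48 ± 16.08 CPM (WT) and 1.911 ± 4.113 CPM (KO). The groups did not overlap: the highest KO library stood at 9.267 CPM and the lowest WT library at 22.89 CPM. The log2 fold change was −4.58 (SE 1.85) with an edgeR adjusted p of 0.07747, which missed the threshold. Without KO library 4 it was −8.75 with an adjusted p of 0.005248, and the exact permutation test, which ranks Mdm2 with the genes whose groups are apart, gave an adjusted p of 0.02675. Over the 18 alternatives the adjusted p of Mdm2 ran from 0.004952 to 0.1383, and 5 of them passed.

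Mdm4 (ENSMUSG00000054387, GRCm38 chromosome 1, 132959484 to 133030561, minus strand) encodes the partner of MDM2 that blocks p53. Its counts were 461, 1135, 1753, 2886 and 2652 in WT and 1, 1785, 2144, 2 and 1204 in KO. In TMM-scaled CPM, KO libraries 2, 3 and 5 stood at 267.8, 293.6 and 527.5, above the WT range of 13.21 to 63.85, while KO libraries 1 and 4 stood at 1.176 and 0.2851, below it. Scaled by total counts alone the same 3 libraries were also above every WT library, at 196.6, 247.8 and 332.6 CPM against a WT maximum of 119.6. Of all tested genes, 19.0, 21.1 and 17.6% stood above every WT library in KO libraries 2, 3 and 5, and 81.6 and 65.7% stood below every WT library in KO libraries 1 and 4. With KO values on both sides of the WT range, the mean was 43.08 ± 22.51 CPM in WT against 218.1 ± 222.7 CPM in KO, and the log2 fold change of 2.34 (SE 1.65) did not pass (edgeR adjusted p = 0.3467). With limma voom the value had the opposite sign, −0.79 (adjusted p = 0.7576); none of the 18 alternatives passed (adjusted p from 0.08753 to 1).

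The counts of Mdm4 and Mdm2 can be set against each other within a library, where scaling plays no part. In WT libraries 1 to 5 there were 0.577, 0.5431, 0.7753, 1.28 and 1.207 Mdm4 counts for each Mdm2 count. In KO libraries 2 and 3 Mdm4 had 1785 and 2144 counts to 1 of Mdm2, and in KO library 5 it had 1204 to 0. KO library 4 had the reverse, 2 counts of Mdm4 to 65 of Mdm2. The WT ratios thus lay between 0.5431 and 1.28, and each KO library other than library 1, which had 1 and 0 counts, held almost only one of the pair. Of all tested genes, 63.6, 54.6, 55.1 and 65% had at most 3 counts in KO libraries 2 to 5. A missing gene is thus common there, and how often other pairs of genes look like this was not counted.

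Cdkn1a (ENSMUSG00000023067, GRCm38 chromosome 17, 29090976 to 29100727, plus strand), the gene of p21, carries the p53 element printed above. Its counts were 5543, 8282, 4733, 8526 and 12595 in WT and 60, 86, 736, 4616 and 4 in KO. It was the only one of the 9 with over 3 counts in every KO library; 7.06% of all tested genes had that. Mean levels were 192.3 ± 56.1 CPM (WT) and 168.8 ± 276.5 CPM (KO). The KO libraries lay on both sides of the WT range of 142.2 to 286.6 CPM: library 4 was above it, at 658.1 CPM, and libraries 1, 2, 3 and 5 were below it, at 70.59, 12.9, 100.8 and 1.752 CPM. In KO library 4, 21.5% of all tested genes were above every WT library, and in libraries 1, 2, 3 and 5, 81.6, 71.1, 66.2 and 71.5% were below. By total counts alone KO library 4 was within the WT range, at 467.8 CPM against a WT maximum of 538.5. The log2 fold change of −0.19 (SE 1.41) did not pass (edgeR adjusted p = 0.9451). Its sign depended on the setting: RLE size factors gave 0.33 and library size alone gave −1.51; without KO library 4, which held Maf counts and gave 83.9% of the KO counts of Cdkn1a, it was −1.79 (adjusted p = 0.3355).

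Cdkn1b (ENSMUSG00000003031, GRCm38 chromosome 6, 134920401 to 134925513, plus strand), the gene of p27, had 191, 530, 561, 1128 and 742 counts in WT. All KO libraries together held 1 count, in library 3. Its level was 15.2 ± 7.187 CPM (WT) and 0.02739 ± 0.06124 CPM (KO), and the WT to KO ratio was 376 (exact 95% counting interval 67.5 to 14900). edgeR gave a log2 fold change of −8.43 (SE 1.60) with an adjusted p of 0.00163. Cdkn1b remained lower under all 18 alternatives (adjusted p up to 0.02675). By total counts alone, its lowest WT share would give 28.73 counts at the smallest KO total, the fewest among the 9. At the scaled size of KO library 1 it would give fewer. Taking both CDK inhibitor genes, the 5 KO libraries held 5502 counts of Cdkn1a and 1 of Cdkn1b, against 39679 and 3152 in WT. Whether the changes of both genes differ was not tested.

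**Figure D2:**
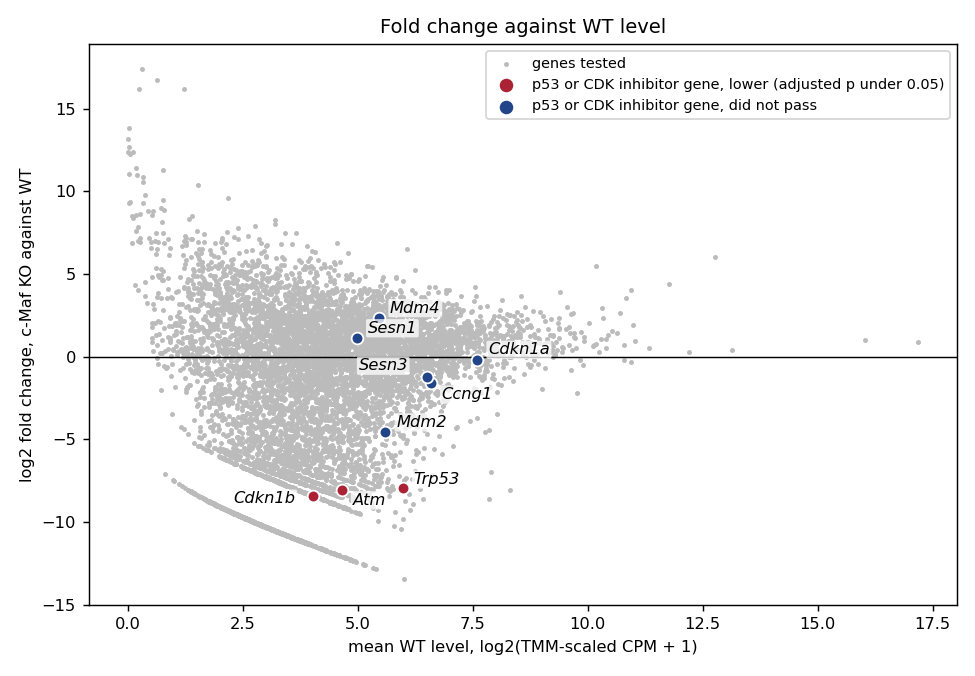
Log2 fold change of c-Maf KO against WT (edgeR) over the mean WT level, log2(TMM-scaled CPM + 1), with each tested gene in grey, the 3 of the 9 genes called lower in red and the 6 that did not pass in blue. Trp53, Atm and Cdkn1b lie between −7.93 and −8.43, above the curved lower line of genes at 0 in all KO libraries; the fitted value of such genes depends on a prior count.

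Ccng1 (ENSMUSG00000020326, GRCm38 chromosome 11, 40748552 to 40755311, minus strand), cyclin G1, is a target of p53 that binds a phosphatase and acts on MDM2. Its counts were 3019, 1980, 5898, 5731 and 1771 in WT and 0, 1, 1146, 3 and 1 in KO. KO library 3 alone carried it, with 99.57% of the KO counts and 156.9 CPM, within the WT range of 40.3 to 177.1 CPM. Group means were 95 ± 57.88 CPM (WT) and 31.59 ± 70.07 CPM (KO). Its log2 fold change of −1.58 (SE 1.88) had an edgeR adjusted p of 0.5967. Leaving out KO library 3 gave −8.19, which passed (adjusted p = 0.005995). It also passed with limma voom (−5.9, adjusted p = 0.01544). Over the 18 alternatives the adjusted p ran up to 0.7466.

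Sesn3 (ENSMUSG00000032009, GRCm38 chromosome 9, 14275067 to 14333101, plus strand), a sestrin, had 1822, 4619, 3088, 3317 and 5591 counts in WT and 0, 0, 1267, 96 and 0 in KO. The same KO library 3 held 92.96% of its KO counts. There it stood at 173.5 CPM, above the WT maximum of 127.2, but within the WT range by total counts alone (146.4 CPM against 75.7 to 239.1). KO library 4 was below the WT range at 13.69 CPM, and KO libraries 1, 2 and 5 were at 0. Group means were 89.76 ± 28.6 CPM (WT) and 37.44 ± 76.3 CPM (KO). The difference, −1.26 on the log2 scale (SE 1.89), did not pass in edgeR (adjusted p = 0.6879). Without KO library 3 the value was −4.65 (adjusted p = 0.07303). It passed with limma voom alone (−5.85, adjusted p = 0.02623), and the highest adjusted p of the 18 alternatives was 0.8041.

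Sesn1 (ENSMUSG00000038332, GRCm38 chromosome 10, 41809935 to 41908424, plus strand), the sestrin that p53 induces, was the most variable of the 9 in WT. Its counts were 3200, 629, 279, 968 and 739 in WT and 0, 2, 13, 412 and 617 in KO. WT library 1 stood at 91.67 CPM and the other 4 at 8.38 to 21.42 CPM; 93.1% of tested genes had a smaller relative spread in WT. KO library 5 stood above every WT library, at 270.3 CPM (170.4 against 132.9 by total counts alone), and KO library 4 within the WT range at 58.74 CPM. KO libraries 1, 2 and 3 were below it. Group means were 30.47 ± 34.54 CPM (WT) and 66.23 ± 116.8 CPM (KO). The log2 fold change of 1.12 (SE 1.79) did not pass (edgeR adjusted p = 0.707), and it was −0.07 with library size alone and −1.01 without KO library 5. Against Sesn3, there were 1.756 Sesn1 counts for each Sesn3 count in WT library 1 and 0.09035 to 0.2918 in the other WT libraries. KO libraries 3 and 4, the ones with over 3 counts of both, had 0.01026 and 4.292, below and above all WT libraries.

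WT library 1 stood apart for several of the 9 genes. In TMM-scaled CPM it was the lowest WT library for Mdm2, Mdm4, Cdkn1b, Sesn3 and Atm, and the highest for Trp53 and Sesn1. By total counts alone Trp53 was highest in WT library 5, at 164.8 CPM against 140.1 CPM in WT library 1. Relative to the median spread of all tested genes in WT (a coefficient of variation of 55.2%), 7 of the 9 genes varied less, from 24.22% for Atm to 52.25% for Mdm4, and Ccng1 (60.93%) and Sesn1 (113.4%) varied more.

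Levels of different genes were compared per kilobase of merged exons, in WT only. Cdkn1a stood first, at 54.11 ± 15.79 CPM per kilobase, followed by Ccng1 at 27.05 ± 16.48, Trp53 at 15.27 ± 7.369 and Mdm2 at 9.341 ± 3.164. Then came Sesn1 at 7.651 ± 8.673, Sesn3 at 5.878 ± 1.873, Cdkn1b at 3.339 ± 1.579, Mdm4 at 2.911 ± 1.521 and Atm at 2.323 ± 0.5628 CPM per kilobase. Every neighbouring pair in this order overlapped in its ranges over the 5 WT libraries. Reads in introns appear to have been counted as well, so the order was also taken per kilobase of the whole gene: Cdkn1a, Ccng1 and Trp53 stayed in the first 3 places and Atm in the last, while Cdkn1b moved from place 7 to 4 and Sesn1 from 5 to 8.

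In the KO libraries a different subset of the 9 genes was present each time. With over 3 counts, KO library 1 held only Cdkn1a and KO library 2 held Cdkn1a and Mdm4. KO library 3 held 5 of them: Cdkn1a, Mdm4, Ccng1, Sesn3 and Sesn1. KO library 4 held Cdkn1a, Mdm2, Sesn3 and Sesn1, and KO library 5 held Mdm4, Sesn1 and Cdkn1a, the last with only 4 counts. All 9 were present in each WT library. Of all tested genes, 82, 63.6, 54.6, 55.1 and 65% had at most 3 counts in KO libraries 1 to 5. Together the 9 genes made up 790.4 to 1326 counts per 1000000 total counts in the WT libraries, and 13.24, 206.6, 613.5, 526.4 and 504.7 in KO libraries 1 to 5. Cdkn1a took 23.32 to 40.62% of the counts of the 9 in WT, and 95.24, 4.584, 13.87, 88.87 and 0.2189% in KO libraries 1 to 5. KO library 1, which held the fewest of the 9 genes, had the highest globin share; among all tested genes 10.1% stood above every WT library in it. Globin counts, library totals and the number of genes seen move with these values between the groups, and their part in the results was not tested.

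**Figure D3:**
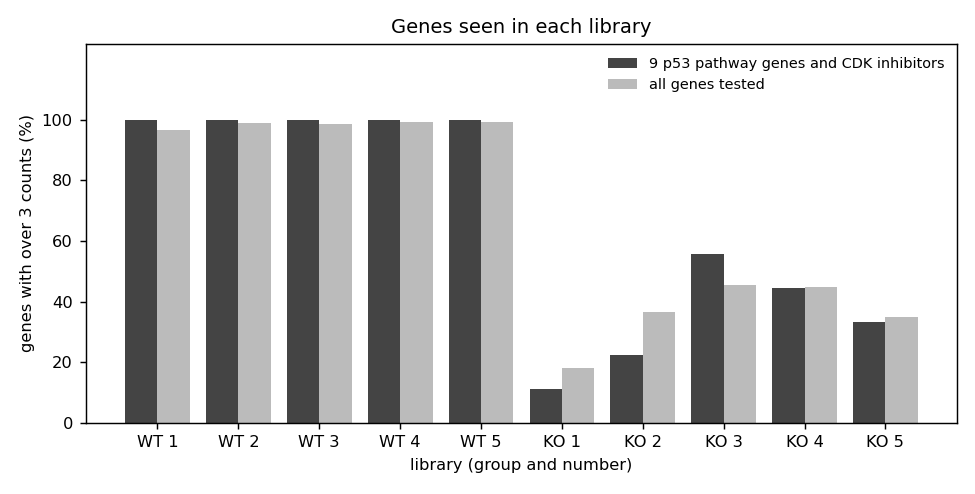
Share of genes with over 3 counts in each library, in percent, for the 9 genes (dark bars) and all 7490 tested genes (light bars). All 9 genes are seen in each WT library and between 1 and 5 of them in a KO library, where 18 to 45.4% of tested genes are seen.

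The genes whose pattern was most alike were found by the root-mean-square difference of log2(CPM + 1) over the 10 libraries, with each gene centred on its own mean. For Trp53 they were Ubap2 and Yaf2, at 0.35 and 0.38 on the log2 scale. For Atm they were Aida and AI467606 (0.34 and 0.36), and for Cdkn1b Paf1 and Itpr3 (0.19 and 0.20). For Mdm2 they were Hsbp1 and Mdh1 (0.33 and 0.53), and for Mdm4 Dynll1 and Htatsf1 (0.67 and 0.73). For Cdkn1a they were Il18rap, a chain of the IL-18 receptor, and Dync1h1 (0.69 and 0.72). Ccng1 lay nearest to Acat1 and Tmem59 (0.56 and 0.57), Sesn3 to Eif4b and Arhgap30 (0.56 each), and Sesn1 to Ddx50 and Kctd9 (0.81 and 0.85). None of these was one of the 9 genes; the closest pair within the 9 was Cdkn1b with Atm, at 0.55.

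Further genes of the pathway were taken from 4 lists, of 30, 35, 30 and 16 genes, not all of which were tested. The filter favours genes high in the deeper WT libraries, which affects the shares lower and higher given below. Shares without the filter were not taken for these lists. Of 23 tested genes in the list of p53 regulators, 7 were lower, 0 higher and 16 did not pass. The 7 include Npat, described above as an activator of histone genes. The median log2 fold change was 0.44. The share lower was 30.4%, near the 27.1% of all tested genes, whose median was −0.47. Ppm1d, a phosphatase that switches the response off, had 2781 counts in WT and 0 in KO, at least 111-fold lower when 3 counts in all of KO are taken as the bound (edgeR adjusted p = 0.001652). Atr, the kinase of stalled replication forks, had 1629 and 0 counts, at least 64.8-fold lower (edgeR adjusted p = 0.001658). Rps27l had 1187 and 2 counts (ratio 70.8, exact 95% counting interval 19.6 to 585). Kat5, an acetyltransferase, had 444 and 1 counts, but 55.45% of its span lies within other genes, so its counts are uncertain. The coactivators Crebbp and Ep300, which acetylate p53, stood at 282.7 ± 131.2 and 148.8 ± 67.89 CPM in WT and at 187.1 ± 247.3 and 232.6 ± 438.2 CPM in KO (edgeR adjusted p = 0.8001 and 0.8155). Their KO libraries ran from 1.35 to 606.8 and from 0.4108 to 1010 CPM. A single KO library held 72.7% of the KO counts of Crebbp, and a single one 88.73% of those of Ep300. The ribosomal proteins Rpl11 and Rpl5, which can bind MDM2, had over 3 counts in every KO library and did not pass (log2 fold changes 1.34 and 0.82, edgeR adjusted p = 0.3929 and 0.6254; with library size alone −0.52 and −0.64). With DESeq2 Rpl11 passed as higher (2.87, adjusted p = 0.04064).

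Of 20 tested p53 target genes other than the 9, 5 were lower (25%, against 27.1% of all tested genes), 0 higher and 15 did not pass, with a median of −0.54. The 5 were Xpc, a sensor of DNA damage, the kinase gene Plk2, Ppm1d, and the death receptor genes Tnfrsf10b and Fas, of which Fas was named after its values were seen. Xpc and Plk2 had 641 and 619 counts in WT and 1 each in KO (edgeR adjusted p = 0.00163 and 0.001652). Their lowest WT libraries stood at 0.8594 and 0.6875 CPM, which gives few counts in a KO library. Plk2 was tested in 13 of the 18 alternatives. Tnfrsf10b had 3779 and 25 counts and Fas 3868 and 28, with edgeR adjusted p of 0.04351 and 0.04783; Fas passed in 6 of 18 alternatives (adjusted p from 0.01356 to 0.1152) and Tnfrsf10b in 6 of 17 (0.008516 to 0.09769). For Fas, leaving out any WT library or KO library 1, 4 or 5 gave an adjusted p of 0.05428 to 0.09235, and for Tnfrsf10b the same libraries gave 0.05043 to 0.09432. Gadd45b and Btg2, stress-induced growth inhibitors, stood at 138 ± 35.35 and 98.76 ± 25.5 CPM in WT and at 132.7 ± 138.5 and 134 ± 148.4 CPM in KO (edgeR adjusted p = 0.9854 and 0.8787). Each had at most 3 counts in 2 KO libraries, and the highest KO libraries stood at 333 and 353.7 CPM. Apaf1, the scaffold of the apoptosome, had 1455 counts in KO, of which KO library 2 held 99.52%; when that library was left out it was lower (−6.33, edgeR adjusted p = 0.01143), and with all libraries it did not pass (−0.73, edgeR adjusted p = 0.8116).

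The list of other CDK inhibitors and the RB pathway had 8 of 15 tested genes lower (53.3%, against 27.1% of all tested genes), 0 higher and 7 that did not pass. The median log2 fold change was −6.47, and −4.03 when the 2 genes at 0 in KO were set to their bound. Cdkn2d, which encodes the CDK4 and CDK6 inhibitor p19, had 834 WT counts and 1 KO count (ratio 99.5, exact 95% counting interval 17.8 to 3940, edgeR adjusted p = 0.00163). Cdkn2a and Cdkn2b were listed at 0 in every library. Cdk4 had 3301 and 2 counts (ratio 197, interval 54.5 to 1630, edgeR adjusted p = 0.004053), and its relative Cdk6 had 64310 and 38101 counts and did not pass (1.86, SE 1.45, edgeR adjusted p = 0.399). Of the KO counts of Cdk6, 71.89% lay in 1 library. The KO libraries ran from 1.5 to 3751 CPM for Cdk6, against 209.9 to 400.7 CPM in WT. E2f5 had 1067 and 0 counts, at least 42.4-fold lower, and E2f3 2003 and 2. In its lowest WT library E2f5 stood at 1.051 CPM, so few counts would be awaited in a KO library. Rb1, the retinoblastoma gene that CDK inhibitors keep active, had no overlap between the groups in TMM-scaled CPM. Every KO library, from 272 to 2330 CPM, stood above every WT library, from 119.3 to 149.3 CPM. The exact permutation test on these levels called 0.975% of all tested genes higher. A single KO library held 71.38% of the KO counts of Rb1. Its separation was not checked library by library with total counts alone. In edgeR the log2 fold change of 2.44 (SE 1.14) had an adjusted p of 0.1352, which missed the threshold. Rb1 was higher in the exact permutation test (adjusted p = 0.02675), with DESeq2 (0.003304) and without KO library 1 (edgeR, 2.62, adjusted p = 0.04119), but with library size alone the value was 1.12 (adjusted p = 0.5494). Its relative Rbl2 stood at 131.1 ± 55.56 and 382.2 ± 382.3 CPM (adjusted p = 0.5005 with edgeR), and the cyclin gene Ccnd2 at 142.4 ± 31.22 and 455.8 ± 789.7 CPM (adjusted p = 0.3991 with edgeR). With DESeq2 Ccnd2 passed as higher (3.77, adjusted p = 0.0217). Its KO libraries ran from 40.35 to 1865 CPM, and without KO library 1 the edgeR value was −0.38 (adjusted p = 0.8272).

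In the sestrin and FOXO list, 5 of 12 tested genes were lower (41.7%, against 27.1% of all tested genes), 0 higher and 7 did not pass, with a median of −2.88. Castor1 and Mios, parts of the amino acid sensing branch in which sestrins act, had 3158 and 1130 WT counts and 1 KO count each. Tsc2, a brake on mTORC1, had 3920 and 0 counts (at least 156-fold lower), and Foxo4 611 and 0 (at least 24.3-fold lower; edgeR adjusted p = 0.00163 for each of these 4). Foxo4 stood at only 0.9071 CPM in its lowest WT library, a level that gives few counts in a KO library. Tsc1, named after its values were seen, had 2407 and 6 counts (edgeR adjusted p = 0.01882). Foxo1 and Foxo3 did not pass. Foxo1 had 13468 WT and 21760 KO counts, 84.57% of the latter in KO library 2 (log2 fold change 3.31, edgeR adjusted p = 0.1779). Without that library the value was 0.86 (edgeR adjusted p = 0.6857), and without KO library 1 it passed as higher (3.6, edgeR adjusted p = 0.04208). Foxo3 had 15410 and 1432 counts (edgeR adjusted p = 0.766). Wdr59, of the same amino acid sensing branch, was lower without KO library 3 (−6.95, edgeR adjusted p = 0.005631) and did not pass with it (−2.41, edgeR adjusted p = 0.286).

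**Figure D4:**
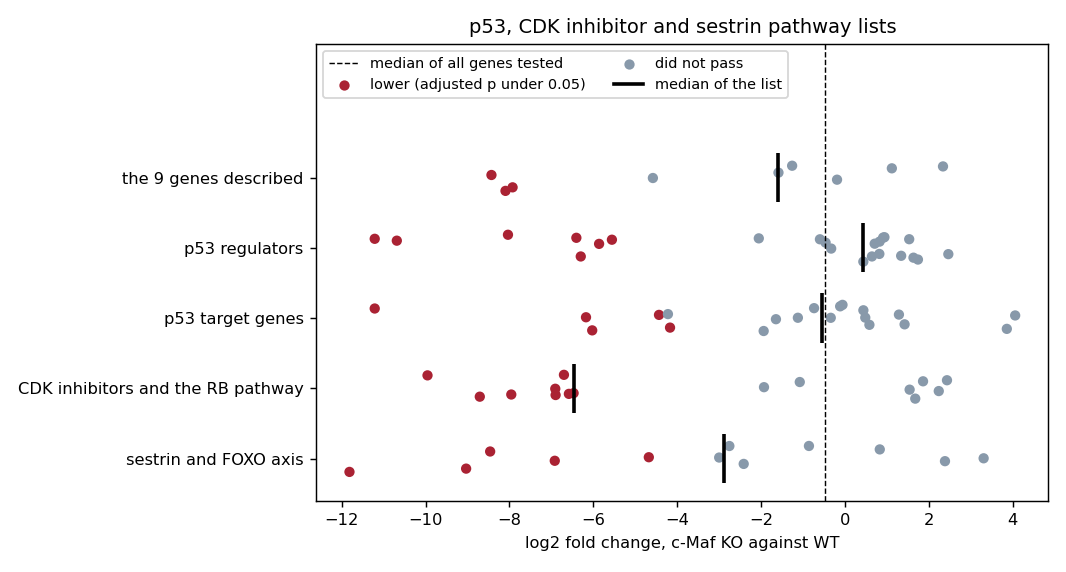
Log2 fold change of c-Maf KO against WT for the tested genes of the 9 and of 4 pathway lists, with genes called lower in red, genes that did not pass in grey, the median of each list as a black bar and the median of all tested genes, −0.47, as a dashed line; the vertical scatter within a row has no meaning. No gene of these lists was called higher, and the CDK inhibitor and RB list has 8 of its 15 genes called lower.

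Genes whose promoter window holds the p53 element were few in this table: of 29 windows, 20 symbols were found and 4 genes were tested. Besides Cdkn1a and Ccng1 these were Mthfd1, with 1187 WT counts and 1 KO count, and Rps27l; the last 2 were lower (edgeR adjusted p = 0.005186 and 0.002625). Other genes cover 30.16% of the span of Mthfd1, so its counts are uncertain. Thus 2 of these 4 genes were lower, against 27.1% of all tested genes, and Cdkn1a and Ccng1, whose sequences are printed above, did not pass.

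**Figure D5:**
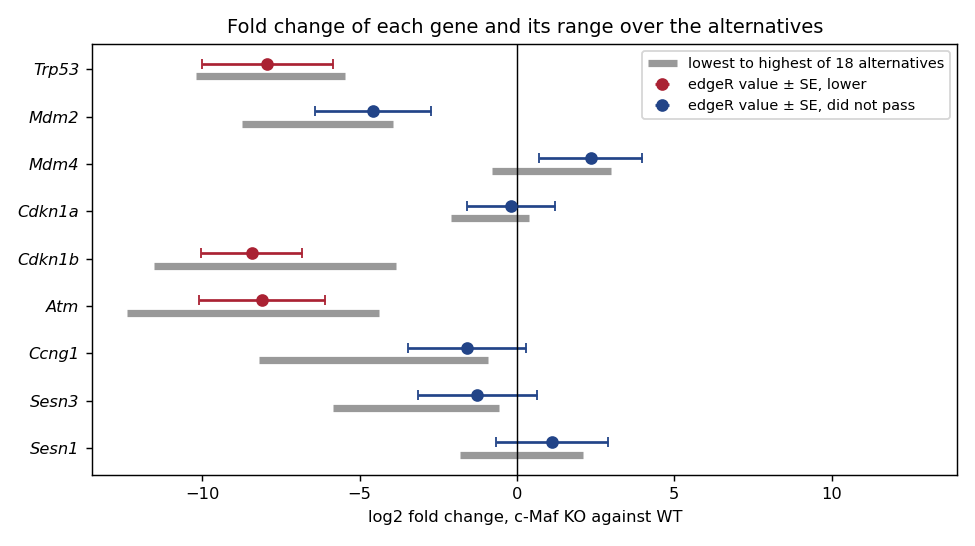
Log2 fold change of each of the 9 genes as edgeR gives it, with its standard error (points and bars, red where called lower), and the lowest to highest value over 18 alternative settings (grey). The grey ranges of Trp53, Mdm2, Cdkn1b, Atm, Ccng1 and Sesn3 lie wholly below 0, and those of Mdm4, Cdkn1a and Sesn1 span 0.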

How the data were processed

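The 5 WT and 5 c-Maf KO libraries of sorted lung ILC2 were made from total RNA with a kit that keeps the strand, per the labels' protocols. The authors deposited raw read counts for each gene, as whole numbers; STAR 2.6.0c, SAMtools 1.8, HTSeq 0.9.1 and build GRCm38 are named in the submitters' processing notes, while no annotation, strand setting or filter is given in the sources used here. GENCODE M21 matched 54723 of 54838 identifiers. Of 684 protein-coding genes lying wholly inside other genes without sharing exons, 98.83% were at 0, against 40.2% of 11721 without overlap, so counting probably covered whole gene spans without strand. At most 10.73% of the span of any of the 9 genes overlapped another gene, and each such neighbour was at 0.

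edgeR 4.0.16 in R 4.3.3 kept genes by filterByExpr (minimum 10 counts), scaled by TMM and ran the quasi-likelihood test of KO against WT over 7490 genes. Each SE is the size of the log2 fold change divided by the square root of F. limma 3.58.1, DESeq2 1.42.0 and the other alternatives are covered in the closing section. Procedures were run on simulated counts drawn from WT means and WT spread. Those counts did not copy the missing genes or the single high libraries of KO, so they cannot speak for the tests on such data. Permutation tests enumerated 252 splits, with a smallest p of 0.00794. The genes, lists and tests were chosen with earlier results of these data known. All 9 genes were named whatever their result; of each list, up to 4 genes that passed, by smallest p, and up to 4 that did not, by WT level, were named, and the 2 genes most like each member. Marker lists of T, B, myeloid, erythroid, and epithelial and endothelial cells had 4, 1, 1, 5 and 1 tested genes; of these 0, 0, 1, 0 and 0 were lower and the 5 erythroid genes higher. Of the 12 ILC2 markers 0 passed. The labels mention no molecular identifiers, so counting intervals and bounds cover counting error only.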

Additional observations from a re-analysis of the deposited data

Results flagged for a closer look

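In 8 of 18 groups of 5 libraries (9 genes, WT and KO), the highest library lay far from the rest, with a gap over 0.71 of the whole range. Chance gives such a gap in about 1 in 20 groups of normally distributed values, but over all 7490 tested genes it was found in 62.3% of KO groups and 11.9% of WT groups. Beside that, 7 of 9 KO groups and 1 of 9 WT groups had it here, so a single high KO library is common among genes and not a result about these 9. KO library 4 stood high for Mdm2, at 9.267 CPM with the next at 0.15, and for Cdkn1a, at 658.1 CPM with the next at 100.8. KO library 3 stood high for Ccng1, at 156.9 CPM with the next at 0.4381, and for Sesn3, at 173.5 CPM with the next at 13.69. For Cdkn1b, KO library 3 at 0.1369 CPM, and for Atm, KO library 1 at 1.176 CPM, the high library held a single count. Sesn1 was high in WT library 1, at 91.67 CPM with the next at 21.42, and in KO library 5, at 270.3 CPM with the next at 58.74. The parts of depth and of globin RNA in these patterns were not tested.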

How the results depend on the processing

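No paired analysis was possible because the labels give no replicate numbers that WT and KO libraries share. Of the 9 genes, 3 were lower as reported, 3 to 4 when single libraries were left out, and 6 with limma voom, where Mdm2, Ccng1 and Sesn3 passed too; 0 were higher in every setting. Over all genes, lower calls were 1173 with a minimum of 50 counts and 3291 without KO libraries 1 and 5, an alternative added after seeing the data, and 1734 to 3350 without single libraries. Higher calls were 112 as reported, 193 with RLE size factors, 49 with library size alone, 1512 with DESeq2, 71 with limma voom, 2345 with no filter, 50 with a minimum of 50 counts, 73 by permutation, 348 without KO libraries 1 and 5, and 82 to 333 without single libraries. Scaling moved the median log2 fold change of all genes by 0.56 (RLE) and −1.3 (library size); with limma voom, another model, it lay −3.11 from the reported one. The cause of the changed counts and signs was not tested.

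Values of the opposite sign, none past the threshold, were as follows. With limma voom: Mdm4 −0.79, Sesn1 −1.81, Ep300 −3, Btg2 −3.4, Cdk6 −1.25, Ccnd2 −0.02, Rbl2 −0.46 and Foxo1 −0.29. With RLE size factors: Cdkn1a 0.33, Crebbp 0.12 and Gadd45b 0.58. With DESeq2: Cdkn1a 0.28, Crebbp 0.06 and Gadd45b 0.5. With library size alone: Sesn1 −0.07, Rpl11 −0.52, Rpl5 −0.64, Ep300 −0.58, Btg2 −0.78 and Ccnd2 −0.9. In the permutation test: Sesn1 −1.3, Ep300 −2.46, Btg2 −1.93, Cdk6 −1.25 and Rbl2 −0.4. Without KO libraries 1 and 5: Cdkn1a 0.38, Sesn1 −0.64 and Ccnd2 −0.44. Leaving out single libraries gave Cdkn1a −1.79 to 0.2, Sesn1 −1.01 to 2.1, Ep300 −1.89 to 0.96, Gadd45b −0.74 to 0.46, Btg2 −0.16 to 0.84 and Ccnd2 −0.38 to 2.52. Of the genes that did not pass as reported, Rpl11 (2.87), Ccnd2 (3.77), Rb1 (3.15) and Foxo1 (3.62) were higher with DESeq2, and Apaf1 (−5.1), Foxo3 (−4.58) and Sqstm1 (−4.17) lower with limma voom. What depth limits was not tested; KO totals began at 3620002 counts.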
